A study of Mus musculus with 8 samples.

Results

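Blastocysts homozygous for the G77S substitution in Isca2 were compared with blastocysts that had lost Isca2, using all genes in the deposited tables and 5 of the 8 libraries of the series. The 5 libraries were those titled G77 (genotype Isca2 G77S/G77S, n = 3) and KO (genotype Isca2 -/-, n = 2). The 3 wild-type libraries (WT) served as a reference level and entered no contrast. They did share the fit, and so took part in the low-count filter, the scaling and the estimate of spread behind each p-value. All embryos were mouse blastocysts of embryonic day 4.5, and per the labels they came from superovulated females mated in heterozygous crosses and were then cultured. The labels name Isca2+/- parents only, and give neither the cross behind the G77S embryos, nor a strain, nor the number of embryos pooled into a library, nor litters or days. Nothing states that replicates were separate litters, so each p-value reflects only how far these particular libraries vary, and part of that may be technical. The study's title speaks of iron metabolism and an interaction between ISCA2 and TET enzymes around implantation, and the comparison asks what separates a changed protein from an absent one.

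ISCA2 is a mitochondrial carrier protein that helps to assemble 4Fe-4S clusters and hand them to enzymes such as lipoyl synthase and subunits of respiratory complexes I and II. Iron-sulfur clusters pass electrons or bind substrates in these enzymes, and clusters exported from mitochondria also serve DNA polymerases, helicases and tRNA-modifying enzymes. The late blastocyst holds an outer trophectoderm that makes contact with the uterus, a primitive endoderm that becomes yolk sac, and an epiblast that forms the embryo. TET enzymes, which oxidise 5-methylcytosine, use iron(II) but no iron-sulfur cluster.

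Total expected counts were 18467418 and 21146927 in the KO libraries and 10323965 to 13490295 in the G77S libraries, with 10790670 to 23842619 in WT. Fragments assumed by the quantification averaged 181 to 185 bases in G77S, 291 and 243 bases in KO and 242.7 to 275.5 bases in WT. The G77S range did not overlap that of the other 5 libraries, so the effects of library preparation and of genotype cannot be told apart in any result here. The 10 most abundant genes took 7.03% to 8.24% of counts in G77S and 13.2% and 11.5% in KO. Pearson correlations of log2 CPM (counts relative to a library's scaled total) were 0.908 to 0.917 among G77S libraries, 0.879 between the KO libraries and 0.831 to 0.844 between the groups. Y-linked RNA from 4 genes was at 1 count in G77S replicate 1 and at 6 counts in WT replicate 1, and at 2168 to 7634 counts in the other libraries. The scaling used TMM factors, which adjust for differences in library composition.

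Isca2 itself (ENSMUSG00000021241, chr12:84773251-84775088 on the plus strand of GRCm38) was at 4.84 and 6.20 CPM in the KO libraries and at 89.1, 105 and 133 CPM in the G77S libraries, against 86.9, 173 and 154 CPM in WT. Every KO library was below every other library, and the G77S and WT libraries overlapped. The log2 difference, G77S minus KO, was 4.30 ± 0.40 (SE), with an adjusted p of 0.00099 in edgeR's quasi-likelihood test, which is the test behind every adjusted p given here. Gene tables cannot show the substituted base, so the levels check the KO label and not the G77S label. Sdhb (ENSMUSG00000009863, chr4:140961203-140979193, plus strand), which encodes the iron-sulfur subunit of succinate dehydrogenase, was at 1139 and 1329 CPM in KO and 365, 367 and 435 CPM in G77S. WT libraries were at 570.1, 1164 and 937 CPM, so all 3 G77S libraries lay below all 5 others while KO and WT overlapped. Its log2 difference was -1.67 ± 0.28, with an adjusted p of 0.0102, a call that ended when KO replicate 2 (adjusted p = 0.0679) or G77S replicate 2 (adjusted p = 0.0519) was left out. Pou5f1 (ENSMUSG00000024406, chr17:35506018-35510772, plus strand), which encodes the pluripotency factor OCT4, was at 2.89 and 3.87 CPM in KO and 52.9, 36.0 and 26.7 CPM in G77S. The 3 WT libraries, at 7.58, 7.45 and 4.49 CPM, lay between the groups without overlap, and the log2 difference was 3.51 ± 0.51 with an adjusted p of 0.00614. Isca2 and Pou5f1 kept their calls in all 20 alternative fits.

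**Figure D1:**
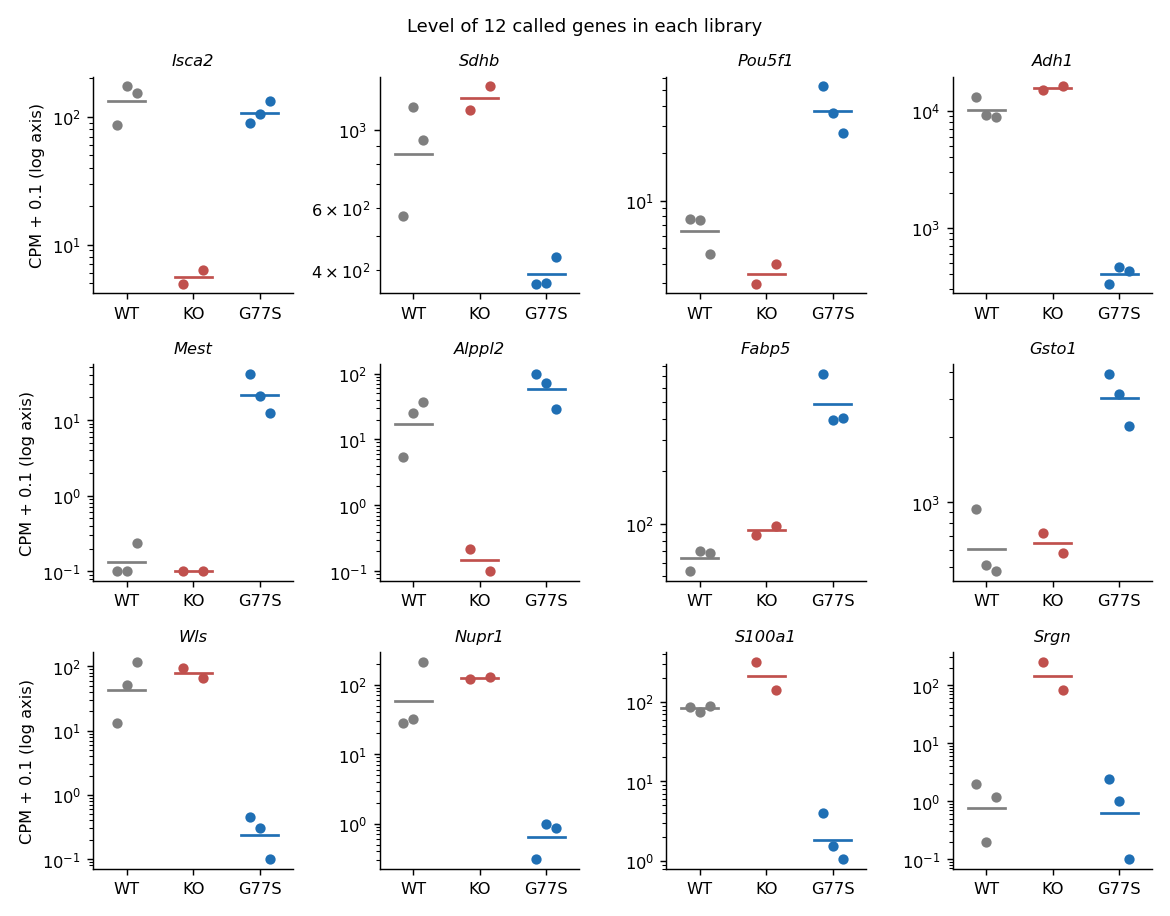
Level of 12 genes that differed between G77S and KO, in CPM + 0.1 on a log axis, with 1 point per library (WT n = 3, KO n = 2, G77S n = 3) and a bar at the geometric mean of the group. For Isca2 and Alppl2 the KO libraries are the low ones, for Sdhb, Wls and Nupr1 the G77S libraries are, and for Srgn only the KO libraries are high.

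Of 13953 genes tested, 585 (4.19%) differed between G77S and KO at an adjusted p under 0.05. G77S was higher for 246 of them (1.76%) and lower for 339 (2.43%), so 42.1% of the calls were higher in G77S. The median log2 difference was 2.33 among the genes called higher and -1.69 among those called lower, against 0.10 over all genes tested. A further measure was overlap: G77S lay above KO in every library for 3475 genes (24.9% of those tested) and below it for 2794 (20.0%), and 583 of the 585 called genes were among these. Calls were mostly of protein-coding genes, 234 of the 246 higher and 318 of the 339 lower. A mean of 10 CPM or more was reached by 214 of the 246 in G77S and 327 of the 339 in KO. That is the level in the higher group, so it does not show that both groups were well measured. Genes called lower had a median transcript length of 2137 bases and a median GC content of 46.6%, those called higher 2402 bases and 51.7%, and all tested genes 2888.5 bases and 49.3%. With a trend on length and GC content removed, 268 genes were higher and 315 lower. On log2(TPM + 1), a length-adjusted scale in which the median of all genes moved to 0.34, limma called 1543 higher and 306 lower, so the share of higher calls rose to 83.5%. Each call depends on few libraries: leaving out KO replicate 2 gave 57 higher and 120 lower, and leaving out G77S replicate 2 gave 70 and 91. Of the 533 called genes that could be tested in all 20 alternative fits, 80 kept the call in each, 21 higher and 59 lower.

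The WT libraries show which of the 2 groups stood apart. Among the 339 genes called lower in G77S, the G77S libraries lay below all 5 others for 271 (79.9%), against 6.98% of all tested genes. KO libraries lay above all 6 others for 168 of them (49.6%), against 7.26% of all tested. For 105 genes both held, with WT between, for 166 only G77S stood apart and for 63 only KO did. The 246 genes called higher were divided more evenly, with G77S above all others for 185 (75.2%) and KO below all others for 173 (70.3%), both for 113, only G77S for 72 and only KO for 60. A gene called between G77S and KO is more likely than an average gene to show either pattern, so these shares are descriptions without a test. The groups that stood apart include one whose fragments were shorter in every library.

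**Figure D2:**
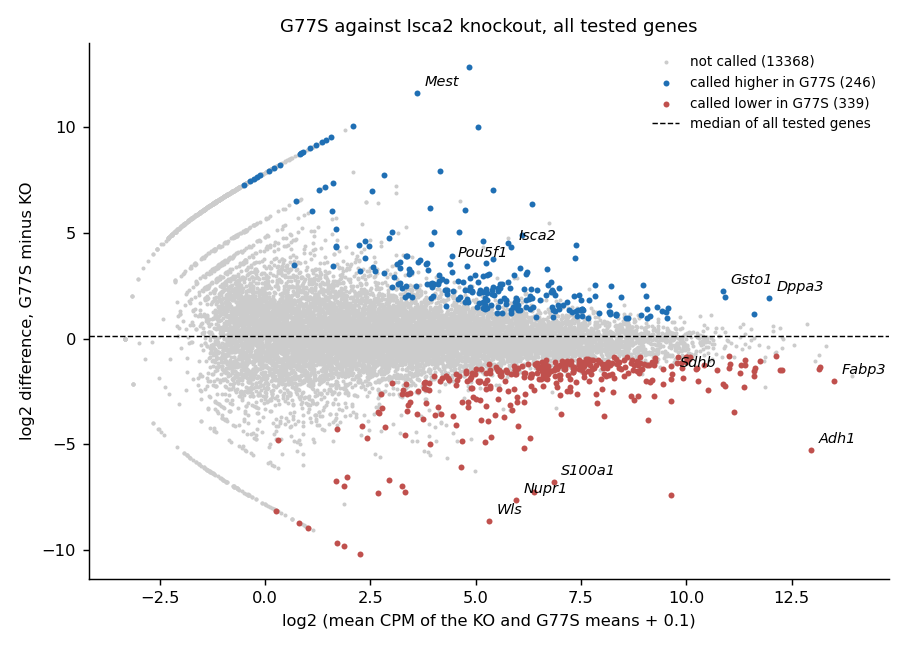
Log2 difference between G77S and KO against mean level for the 13953 tested genes, with the genes called higher (246) and lower (339) in colour and a dashed line at the median of all genes (0.10). Genes called lower reach to the highest levels, among them Fabp3 and Adh1, while Mest, with no counts in KO, is among the largest positive differences.

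Among the genes with the largest positive differences, Mest, Alppl2 and Slc35e4 had at most 0.118 CPM in KO. Mest, a paternally expressed imprinted gene of the hydrolase fold family, had no counts in either KO library and was at 40.2, 20.5 and 12.1 CPM in G77S. WT was at 0, 0 and 0.139 CPM, so G77S alone was high, and the level was at least 299.6-fold higher in G77S than in KO, against a floor of 3 counts over the KO group. Alppl2, an alkaline phosphatase of early embryos and germ cells, was at 0.118 and 0 CPM in KO and 97.4, 72.0 and 28.4 CPM in G77S. Here KO was the group apart, since WT at 5.30, 24.8 and 36.8 CPM overlapped G77S, and the ratio of G77S to KO was 1227 with a 95% counting interval of 339 to 10137. Slc35e4, a solute carrier, was at 0.118 and 0.0530 CPM in KO and 12.9, 14.4 and 6.85 CPM in G77S, a ratio of 140.2 (47.7 to 682), with WT in between at 5.58, 3.08 and 5.70 CPM. These 3 genes kept their calls in all 20 alternative fits. The intervals cover counting error only. Spic, a transcription factor of the ETS family, was at 2.72 and 6.25 CPM in KO and 166, 81.7 and 151 CPM in G77S, and Mgarp, a mitochondrial protein of steroid-making tissues, at 2.30 and 6.84 and 174, 74.3 and 65.9 CPM. No WT library reached the G77S range for either gene (Spic 8.70, 23.5 and 78.6 CPM, Mgarp 5.80, 1.49 and 3.94 CPM). Their log2 differences were 4.88 ± 0.91 and 4.51 ± 0.75. The rule for naming genes also took Osbpl6, Trim43b, Tat, Nlrp4c, Naa60, Ggt1 and Lgals9, with log2 differences between 4.59 (Lgals9) and 7.92 (Trim43b). In Trim43b the 3 G77S libraries ranged from 2.04 to 57.7 CPM. Calls were lost in alternative fits for Spic in 2 (adjusted p up to 0.115), Mgarp in 1 (adjusted p up to 0.0731), Lgals9 in 4 (adjusted p up to 0.155), Nlrp4c in 5 (adjusted p up to 0.165), Naa60 in 6 (adjusted p up to 0.173), Osbpl6 in 7 (adjusted p up to 0.198), Trim43b in 7 (adjusted p up to 0.189), Tat in 10 (adjusted p up to 0.16) and Ggt1 in 10 (adjusted p up to 0.144).

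The strongest result by p-value was Adh1 (chr3:138260991-138290698, plus strand), the class I alcohol dehydrogenase that oxidises ethanol and retinol. It was at 14948 and 16123 CPM in KO and 333, 461 and 425 CPM in G77S. WT was at 13087, 9201 and 8902 CPM, so KO was above and G77S below every other library. The log2 difference was -5.26 ± 0.25, with an adjusted p of 6.22e-06. S100a1, a calcium-binding protein, followed the same order, at 318 and 139 CPM in KO, 85.5, 74.9 and 87.9 CPM in WT and 3.85, 1.43 and 0.954 CPM in G77S (log2 difference -6.76 ± 0.57). Wls, the carrier that brings WNT ligands to the cell surface, was at 93.5 and 64.8 CPM in KO and 0.350, 0.204 and 0 CPM in G77S. WT libraries were at 12.8, 51.4 and 117 CPM, so G77S alone was low, with a log2 difference of -8.61 ± 1.01 and an adjusted p of 0.00275. Mb (myoglobin, which binds oxygen) was at 33.5 and 24.7 CPM in KO and 1.26, 0.816 and 0.694 CPM in G77S, and Adhfe1, an iron-dependent hydroxyacid dehydrogenase of mitochondria, at 81.7 and 62.3 and 2.66, 1.77 and 2.78 CPM. In both genes KO lay above and G77S below every WT library, with log2 differences of -4.96 ± 0.56 and -4.90 ± 0.46. All 5 genes kept their calls in all 20 alternative fits.

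Another set of genes was high in KO alone. Srgn, the secretory granule proteoglycan serglycin, was at 249.4 and 83.0 CPM in KO, 2.31, 0.884 and 0 CPM in G77S and 1.84, 0.0993 and 1.07 CPM in WT, with a log2 difference of -7.24 ± 1.09. Rcn1, a calcium-binding protein of the endoplasmic reticulum, was at 21.8 and 15.8 CPM in KO and at most 0.42 CPM in the other 6 libraries. Qpct, which forms N-terminal pyroglutamate, was at 18.7 and 6.52 CPM in KO and 0.210, 0 and 0 CPM in G77S, and had no counts in WT. Ubd, a ubiquitin-like protein, and Lrrc34 were at 20.1 and 10.1 CPM and 53.5 and 45.9 CPM in KO and at 0, 0.408 and 0 CPM and 2.17, 0 and 0 CPM in G77S. Cyp26a1, which degrades retinoic acid, differed widely between the KO libraries (36.9 and 2.596 CPM) and was at 0.350, 0 and 0 CPM in G77S. In all 6 genes the KO libraries were above every G77S and WT library. Srgn kept its call in all alternative fits, and calls were lost for Rcn1 in 4 (adjusted p up to 0.0805), Qpct in 5 (adjusted p up to 0.167), Ubd in 4 (adjusted p up to 0.146), Lrrc34 in 7 (adjusted p up to 0.149) and Cyp26a1 in 6 (adjusted p up to 0.428).

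Among the most abundant called genes, Dppa3 (a maternal factor that protects methylation in the early embryo) was at 1197 and 2139 CPM in KO and 6776, 5336 and 6890.3 CPM in G77S, with WT at 4262, 5585 and 2813 CPM. KO was the low group, and the log2 difference was 1.92 ± 0.34. Gsto1, a glutathione transferase of the omega class, was at 723 and 584 CPM in KO, 928, 509 and 479 CPM in WT and 3913, 3184 and 2257 CPM in G77S, so here G77S alone was high. Calcoco2, an autophagy receptor, was at 962 and 620.0 CPM in KO and 3404, 2659 and 3085 CPM in G77S, and Map1lc3b, an autophagosome protein that such receptors bind, at 1324 and 2521 and 4878, 3962 and 4138 CPM. In the other direction Calm2 (calmodulin) was at 5669 and 8371 CPM in KO and 2053, 2154 and 3420.1 CPM in G77S, with a log2 difference of -1.47 ± 0.29. Calls were lost in alternative fits for Dppa3 in 1 (adjusted p up to 0.0825), Gsto1 in 1 (adjusted p up to 0.0759), Calcoco2 in 1 (adjusted p up to 0.0787), Map1lc3b in 8 (adjusted p up to 0.147) and Calm2 in 4 (adjusted p up to 0.154).

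Genes of mitochondrial iron-sulfur assembly had mostly negative differences, 15 of 19. Among these 19 tested genes Isca2 was called higher, Nfu1 and Ndufab1 were called lower and 16 were not called, and the list's median log2 difference was -0.53, against 0.10 over all genes, of which 1.76% were called higher and 2.43% lower. G77S lay below KO in every library for 12 of the 19, against 20.0% of all genes. Nfu1, which hands 4Fe-4S clusters to lipoyl synthase and other targets after ISCA2, was at 446 and 416 CPM in KO and 220.1, 210.0 and 222 CPM in G77S. WT was at 198, 299.7 and 276 CPM, so KO was the group apart, and the log2 difference was -0.99 ± 0.22. Ndufab1, the mitochondrial acyl carrier protein that is also bound to complex I, was at 828 and 871 CPM in KO and 294, 324 and 459 CPM in G77S (-1.24 ± 0.26). Isca1, the partner of ISCA2 in the same carrier complex, had a log2 difference of -0.35 ± 0.26 with an adjusted p of 0.493. The scaffold gene Iscu was at -0.55 ± 0.23, and the cysteine desulfurase Nfs1, which supplies the sulfur, at 0.28 ± 0.41; neither was called. Isca1, Iscu and Nfs1 were chosen after their values were seen.

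In the cytosolic assembly list, 1 of 11 tested genes was called, against 4.19% of all genes. The gene was Ciao2a, which takes part in cluster delivery to cytosolic targets. Its levels were 3487 and 3618 CPM in KO, 3005, 3530.2 and 3744 CPM in WT and 1276, 1162 and 1983 CPM in G77S (log2 difference -1.27 ± 0.24), with G77S below all other libraries. The other 10 had positive differences, and the list's median of 0.42 was 0.32 above that of all genes, or 0.03 above it once the length and GC trend was removed. Of 19 iron-sulfur enzymes of nucleus and cytosol, only Dph1 was called (5.26%, against 4.19% of all genes). Dph1, a diphthamide synthesis enzyme, was at 0.354 and 0.424 CPM in KO, 7.36, 2.88 and 5.61 CPM in WT and 7.70, 11.7 and 9.72 CPM in G77S. Dph1 shares exons with Ovca2 on the same strand, which was at 26.5 and 28.2 CPM in KO and 34.7, 29.4 and 24.4 CPM in G77S. The split of reads between them is uncertain. Of 20 iron-handling genes only Pcbp1, an RNA-binding protein that also carries iron to ferritin, was called (log2 difference 1.39 ± 0.33). That is 5% of the list, against 4.19% of all genes. Ftl1, the ferritin light chain that stores iron, was at 30832 and 17626 CPM in KO, 15977, 6650.3 and 7014 CPM in WT and 11364, 6147 and 3778 CPM in G77S, and its difference of -1.77 ± 0.48 did not pass (adjusted p = 0.0659; chosen after its values were seen). KO was above all other libraries for Ftl1, whose near-identical pseudogene copies make its count uncertain. None of 17 genes of lipoylation and lipoyl enzymes passed. Their smallest adjusted p was 0.0683, for Gcsh, the lipoyl carrier of glycine cleavage, which was at 194 and 193 CPM in KO and 324, 338 and 302 CPM in G77S. Calls were lost in alternative fits for Nfu1 in 8 (adjusted p up to 0.138), Ndufab1 in 6 (adjusted p up to 0.297), Ciao2a in 5 (adjusted p up to 0.0923), Dph1 in 3 (adjusted p up to 0.0648) and Pcbp1 in 7 (adjusted p up to 0.182).

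Nuclear genes of the 5 respiratory complexes had negative differences almost throughout. Of 81 tested, 9 (11.1%) were called lower and 0 higher, 73 had a log2 difference below 0, and the median was -0.62, against 2.43% called lower and a median of 0.10 over all genes. G77S lay below KO in every library for 51 of the 81 (63.0%), against 20.0% of all genes, and above it for 1. Complex I, which takes electrons from NADH, had 5 of 36 subunit genes called lower, with a median of -0.68. Ndufs4, an accessory subunit, was at 423 and 591 CPM in KO, 288, 484 and 491 CPM in WT and 169.9, 174 and 223 CPM in G77S (log2 difference -1.42 ± 0.28). Ndufa12 was at 573 and 736 CPM in KO and 284, 302 and 299.6 CPM in G77S, and Ndufb5 at 580.2 and 642 and 276, 218 and 272 CPM. In all 3 genes the G77S libraries were below all other libraries. The other two called were Ndufab1 and Ndufb10, of which Ndufb10 was chosen after its value was seen (-1.15 ± 0.27).

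In complex II and its assembly factors only Sdhb of 8 genes was called, with a median of -0.60. Complex III, which reduces cytochrome c, had Uqcr11 (519 and 891 CPM in KO and 247, 188 and 259 CPM in G77S) and Uqcrq (512 and 785 and 271, 247 and 308 CPM) called among 9 subunits. Complex IV, the terminal oxidase, had 0 of 11 called, the smallest adjusted p being 0.071 for Cox5a, yet all 11 differences were below 0 and the median was -0.75. Among 17 genes of complex V only Atpif1, the inhibitor of the ATP synthase, was called (-1.10 ± 0.22), and there KO was the group above all others. Summed over the complex I list, KO was at 14399.8 and 19124 CPM, G77S at 10181, 8786 and 10680.4 CPM and WT at 10346, 16375 and 15407 CPM. The G77S sums were below both KO sums for each of the 5 complexes. WT replicate 1 lay within the G77S range in complexes I, III, IV and V, so the G77S libraries were not apart from WT there as they were from KO. The medians of these 5 lists, relative to all genes, stayed below 0 in all 20 alternative fits. Calls were lost in alternative fits for Ndufs4 in 4 (adjusted p up to 0.15), Ndufa12 in 4 (adjusted p up to 0.146), Ndufb5 in 5 (adjusted p up to 0.12), Ndufb10 in 6 (adjusted p up to 0.19), Uqcr11 in 4 (adjusted p up to 0.183), Uqcrq in 8 (adjusted p up to 0.285) and Atpif1 in 5 (adjusted p up to 0.16).

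Of 18 genes of the tricarboxylic acid cycle, 3 were called lower (2.43% of all genes) and 0 higher, with a median of -0.65 against 0.10 over all genes. Besides Sdhb these were Idh2, the mitochondrial NADP-dependent isocitrate dehydrogenase, and Suclg1, a subunit of succinyl-CoA ligase. Idh2 was at 494 and 304 CPM in KO, 150.1, 183 and 122.9 CPM in WT and 169, 103 and 105 CPM in G77S, so KO alone was high (log2 difference -1.67 ± 0.31). Suclg1 was at 1149 and 1296 CPM in KO, 804, 1222 and 1018 CPM in WT and 623, 474 and 541 CPM in G77S, so G77S alone was low (-1.16 ± 0.22). The summed cycle genes were at 8961 and 8919 CPM in KO and 5817, 5121 and 5568 CPM in G77S. Transcripts of the mitochondrial genome had 2 of 13 called lower, mt-Co1 at 14726 and 11495 CPM in KO and 6328, 4416 and 4846 CPM in G77S and mt-Co3 at 4589 and 4741 and 2659.6, 1968 and 2153 CPM. The median of this list, -0.38, turned to 0.31 above that of all genes with the length and GC trend removed, and both calls were lost there (adjusted p = 0.361 and 0.647). Of 78 mitochondrial ribosomal protein genes 3 were called (3.85%, near the 4.19% of all genes), all lower, with a list median of -0.17: Mrpl41 (316 and 274 CPM in KO and 76.99, 86.0 and 85.9 CPM in G77S), Mrpl23 and Mrpl1. Mrpl41 kept its call in all alternative fits, and calls were lost for Idh2 in 3 (adjusted p up to 0.112), Suclg1 in 6 (adjusted p up to 0.116), mt-Co1 in 4 (adjusted p up to 0.361), mt-Co3 in 5 (adjusted p up to 0.647), Mrpl23 in 4 (adjusted p up to 0.193) and Mrpl1 in 7 (adjusted p up to 0.297). None of 19 glycolysis genes passed, and their median of 0.22 changed sign relative to all genes in 6 of the 20 alternative fits.

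**Figure D3:**
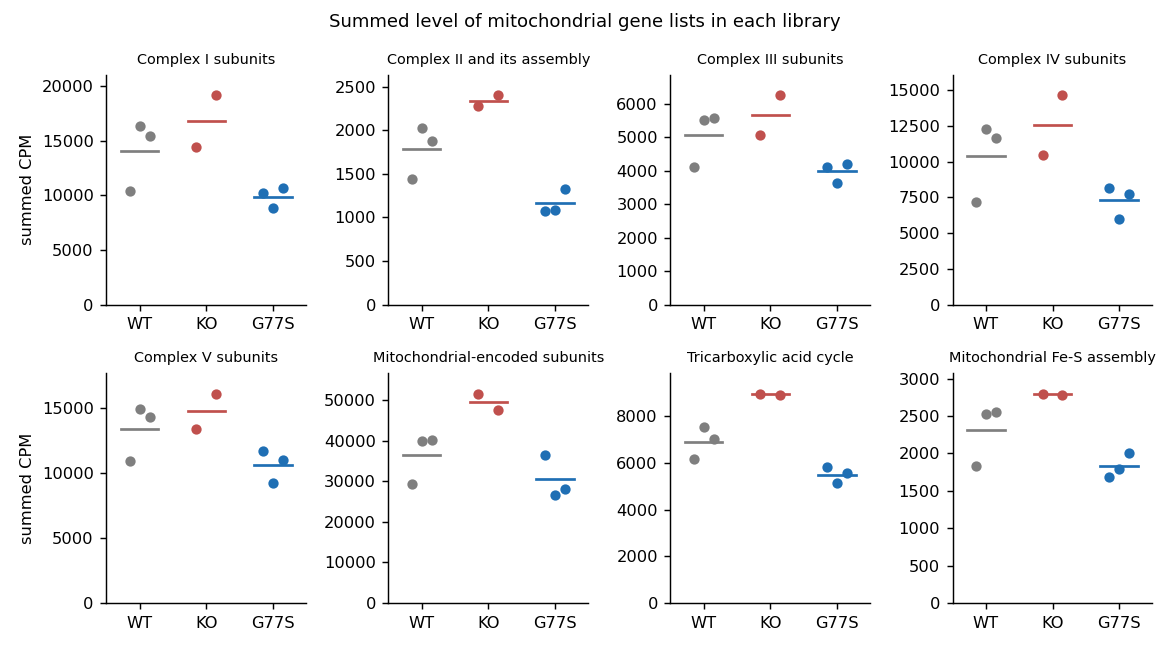
Summed CPM of 8 mitochondrial gene lists in each library, with 1 point per library and a bar at the group mean (WT n = 3, KO n = 2, G77S n = 3). The G77S sums are below both KO sums in every panel, and for the tricarboxylic acid cycle and complex II they are also below all WT sums.

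Genes of the integrated stress response, the ATF4 program that cells start when translation initiation factor eIF2 is phosphorylated, had 4 of 23 tested members called lower in G77S and 0 higher, with a median of -1.21. Over all genes 2.43% were called lower and the median was 0.10. The 4 were Nupr1, Asns, Ddit3 and Slc7a3. ATF4 is known to bind composite elements near the start of target genes, and the windows before the starts of Asns and Nupr1 are shown since both hold the searched form of that element (TGATGNAAN, either strand). They are the 250 bases before the start in RefSeq, build GRCm38.p6, written 5′ to 3′ on the gene's strand, with the match in capitals. The Asns window is chr6:7693210-7693459 and the Nupr1 window is chr7:126625471-126625720, both on the minus strand.
Asns: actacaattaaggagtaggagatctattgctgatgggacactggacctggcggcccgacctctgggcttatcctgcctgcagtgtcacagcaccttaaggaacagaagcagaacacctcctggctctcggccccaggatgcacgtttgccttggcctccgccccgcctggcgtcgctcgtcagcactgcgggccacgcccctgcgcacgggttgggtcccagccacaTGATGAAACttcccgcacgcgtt
Nupr1: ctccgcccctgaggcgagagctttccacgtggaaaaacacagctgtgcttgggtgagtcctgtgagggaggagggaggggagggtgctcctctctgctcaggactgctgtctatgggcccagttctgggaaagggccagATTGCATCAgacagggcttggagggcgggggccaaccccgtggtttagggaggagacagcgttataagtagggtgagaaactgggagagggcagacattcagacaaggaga
In Asns the match begins 23 bases before the start and reads on the gene's strand, and in Nupr1 it begins 111 bases before the start and reads on the opposite strand. Of the 26 listed genes 22 had a window, and 7 of those (31.8%) held the motif, against 3.89% of the 27025 genes in the table. The list was drawn up from ATF4 targets, so this share describes the list. Ddit3 had no match in its window, which says only that these letters are not there, and Slc7a3 was named only.

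Nupr1, a stress-induced chromatin regulator, was at 121 and 127 CPM in KO, 27.9, 32.4 and 212 CPM in WT and 0.210, 0.884 and 0.781 CPM in G77S. All G77S libraries were far below all 5 others, with a log2 difference of -7.62 ± 0.97 and an adjusted p of 0.00341. Asns, asparagine synthetase, was at 306 and 171 CPM in KO, 55.3, 266 and 374 CPM in WT and 25.8, 17.95 and 16.6 CPM in G77S. The G77S libraries were again the lowest 3, and the log2 difference was -3.57 ± 0.61. Ddit3, the transcription factor CHOP, was at 235 and 167 CPM in KO and 27.5, 54.7 and 42.0 CPM in G77S (-2.28 ± 0.40), and Slc7a3, a cationic amino acid transporter, at 23.03 and 14.995 and 1.26, 0 and 1.21 CPM (-4.54 ± 0.99). WT was above G77S in both genes as well. The other 19 members did not pass, and 7 of the 23 had positive differences. Slc7a3 was also the only one of 16 amino acid transporter genes called (6.25%, against 4.19% of all genes), and none of 20 cytosolic aminoacyl-tRNA synthetase genes passed (median -0.38). Nupr1 kept its call in all alternative fits, and calls were lost for Asns in 3 (adjusted p up to 0.0667), Ddit3 in 1 (adjusted p up to 0.0794) and Slc7a3 in 7 (adjusted p up to 0.104).

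Of 28 glutathione and peroxide defence genes 3 were called higher, 3 lower and 22 not, against 1.76% and 2.43% of all genes, and the median was 0.69. Gpx1, the main cytosolic glutathione peroxidase, was at 2626 and 2346 CPM in KO, 2007, 2487 and 2141 CPM in WT and 899, 697 and 1061 CPM in G77S (-1.49 ± 0.22). Gstm2, a mu-class glutathione transferase, was at 235 and 205 CPM in KO, 77.1, 122.7 and 134 CPM in WT and 26.4, 28.9 and 47.9 CPM in G77S (-2.68 ± 0.33). Gstm1 was at 62.0 and 74.9 CPM in KO against 8.82, 7.82 and 5.81 CPM in G77S and 2.01, 4.37 and 8.76 CPM in WT, so there KO was high. Gstm1 and Gstm2 are near-identical neighbours, and the split of reads between them is uncertain. The genes called higher were Gpx2, Gsr and Gclm, which were chosen after their values were seen. Gpx2, another peroxidase, was at 3.01 and 2.33 CPM in KO and 72.7, 31.4 and 16.6 CPM in G77S. Gsr, which regenerates reduced glutathione, was at 12.5 and 19.6 and 87.9, 79.8 and 60.6 CPM, and Gclm, a subunit of the enzyme that starts glutathione synthesis, at 18.5 and 16.4 and 63.6, 59.2 and 44.2 CPM. In these 3 genes G77S was above all KO and WT libraries. Gpx1 and Gstm2 kept their calls in all alternative fits, and calls were lost for Gstm1 in 3 (adjusted p up to 0.0666), Gpx2 in 3 (adjusted p up to 0.11), Gsr in 4 (adjusted p up to 0.117) and Gclm in 8 (adjusted p up to 0.224).

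Trophectoderm genes included some of the most abundant calls. Of 32 tested, 6 were lower in G77S (Fabp3, Tspan8, Plac1, Krt18, Id2 and Dppa1) and 2 higher (Msx2 and Lrp2), against 2.43% and 1.76% of all genes, and the median was -0.40. Fabp3, a fatty acid-binding protein, was at 17829.9 and 19655 CPM in KO, 17156, 20519 and 16936 CPM in WT and 6206, 3396 and 4216 CPM in G77S (-2.02 ± 0.24). Tspan8, a tetraspanin, was at 2379.9 and 2544 CPM in KO, 1592, 2633 and 3354 CPM in WT and 367, 444 and 566 CPM in G77S (-2.42 ± 0.30). Plac1, a trophoblast surface protein, was at 1036 and 1052 CPM in KO, 700.4, 1242 and 1515 CPM in WT and 129.9, 115 and 232 CPM in G77S (-2.72 ± 0.36). In each of the 3 genes KO and WT overlapped and all G77S libraries were lower. The keratin Krt18 followed at 9009 and 5551 CPM in KO and 2691, 2425 and 2808 CPM in G77S (-1.46 ± 0.25), and its partner Krt8 did not pass (-0.89 ± 0.27, adjusted p = 0.0977). The summed list was at 42367 and 41426 CPM in KO, 40626, 42830.0 and 41356 CPM in WT and 16168, 11713 and 14789.6 CPM in G77S. In KO most of this sum was Fabp3 and Krt18. Over the list, 14 of the 32 genes had positive differences. G77S lay above KO in every library for 9 of the 32 and below it for 13, against 24.9% and 20.0% of all genes. In whole blastocysts, fewer cells of a type and less RNA per cell cannot be told apart.

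Cdx2 and Gata3, transcription factors of the trophectoderm, were not called. Cdx2 was at 6.08 and 3.34 CPM in KO and 13.7, 12.99 and 6.16 CPM in G77S, and Gata3 at 82.8 and 58.0 and 113, 119 and 112 CPM, with log2 differences of 1.22 ± 0.65 and 0.71 ± 0.32 that did not pass (adjusted p = 0.316 and 0.242). Msx2, a homeobox factor, was at 3.60 and 0.848 CPM in KO and 30.5, 27.4 and 19.2 CPM in G77S, and Lrp2, an endocytic receptor of trophectoderm and primitive endoderm, at 24.98 and 26.9 and 111, 172 and 117 CPM. Msx2, Lrp2, Id2 and Dppa1 were chosen after their values were seen. Fabp3, Tspan8 and Plac1 kept their calls in all alternative fits, and calls were lost for Krt18 in 4 (adjusted p up to 0.0846), Id2 in 2 (adjusted p up to 0.0593), Dppa1 in 5 (adjusted p up to 0.238), Msx2 in 4 (adjusted p up to 0.0804) and Lrp2 in 5 (adjusted p up to 0.154).

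Primitive endoderm genes had 5 of 22 called lower in G77S (2.43% of all genes) and 2 higher (1.76% of all genes), with a median of -1.01. Apoe, a lipid-carrying apolipoprotein, was at 652 and 778 CPM in KO, 255, 226 and 148 CPM in WT and 198, 62.7 and 63.9 CPM in G77S (-2.72 ± 0.47). Aqp8, a water channel, was at 27.6 and 38.7 CPM in KO and 5.04, 2.45 and 0.781 CPM in G77S, with at most 0.0558 CPM in WT. The laminin chains Lama1 and Lamb1 of the basement membrane were at 18.5 and 19.1 CPM and 24.2 and 19.9 CPM in KO and at 2.17, 1.43 and 2.86 CPM and 5.81, 5.17 and 4.42 CPM in G77S. For these 4 genes and Srgn the KO libraries were above every other library. Apoa1, another apolipoprotein, was called higher in G77S, at 6.26 and 4.24 CPM in KO, 62.2, 22.6 and 17.3 CPM in G77S and 119.6, 88.2 and 180.0 CPM in WT, so KO was the low group. The lineage regulators Gata6 (26.8 and 28.03 CPM in KO, 26.2, 28.2 and 26.0 CPM in G77S) and Sox17 (1.06 and 0.901 CPM in KO, 2.59, 0 and 0 CPM in G77S) were not called. The summed list was at 2825 and 2167 CPM in KO and 1123, 1520.5 and 1352 CPM in G77S. Lama1, Lamb1 and Apoa1 were chosen after their values were seen, and calls were lost for Apoe in 2 (adjusted p up to 0.0664), Aqp8 in 4 (adjusted p up to 0.154), Lama1 in 8 (adjusted p up to 0.191), Lamb1 in 8 (adjusted p up to 0.361) and Apoa1 in 4 (adjusted p up to 0.199).

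In the list of epiblast and naive pluripotency genes, Pou5f1, Dppa2 and Dppa3 were called higher of 25 tested (1.76% of all genes) and 0 lower. The median of 0.40 was above that of all genes in 18 of the 20 alternative fits and below it with the replicate block and on log2(TPM + 0.1). Dppa2, a chromatin protein of pluripotent cells, was at 290.4 and 298 CPM in KO, 318, 371 and 412 CPM in WT and 808, 721 and 789 CPM in G77S (1.39 ± 0.21). Its call was lost without KO replicate 1 (adjusted p = 0.0507) or KO replicate 2 (adjusted p = 0.0518). Nanog, a core pluripotency factor, was at 53.4 and 27.4 CPM in KO, 115, 66.9 and 176 CPM in G77S and 297, 266 and 221 CPM in WT. KO was below all other libraries there, but the log2 difference of 1.56 ± 0.42 did not pass (adjusted p = 0.065). Zfp42 (199 and 248.8 CPM in KO, 263, 234 and 213 CPM in G77S) was not called, and Sox2, a defining gene of the epiblast, was nearly absent, at 0.413 and 1.32 CPM in KO, 0.910, 0.136 and 0.174 CPM in G77S and 0 counts in WT. Summed over the list, KO at 13479.8 and 16061 CPM and G77S at 15316, 11890.1 and 15979 CPM overlapped.

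**Figure D4:**
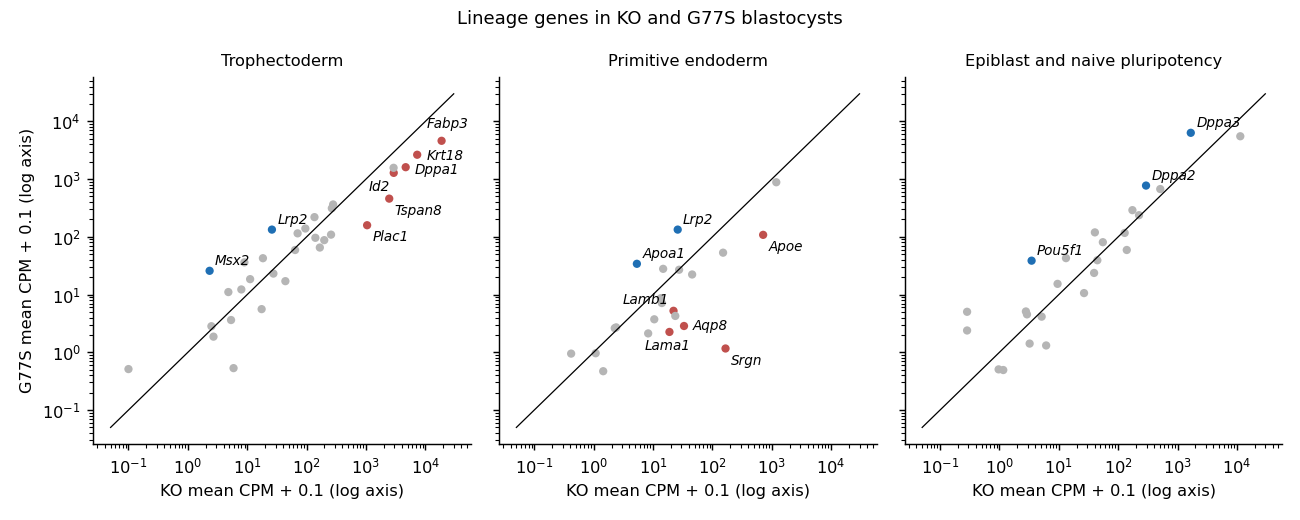
Mean level in KO (x axis) and G77S (y axis) of genes on the trophectoderm, primitive endoderm and epiblast lists, in CPM + 0.1 on log axes, with called genes in colour (blue higher, red lower in G77S) and a line of equal level. The 6 trophectoderm genes called lower are among the most abundant of their list in KO, while the 4 primitive endoderm genes Srgn, Aqp8, Lama1 and Lamb1 lie below 10 CPM in G77S.

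In the list of DNA methylation and demethylation, Dppa3 was called higher and Idh2 lower among 27 tested genes, with a median of -0.09. Neither encodes a TET enzyme or a DNA methyltransferase. Over all genes 1.76% were called higher and 2.43% lower, and the median was 0.10. Tet1 was at 5.96 and 4.77 CPM in KO and 18.2, 13.7 and 10.8 CPM in G77S, and Tet2 at 24.8 and 10.7 and 43.6, 32.7 and 38.9 CPM. G77S was above KO in every library for both, but their log2 differences of 1.41 ± 0.74 and 1.11 ± 0.41 did not pass (adjusted p = 0.306 and 0.16). Tet3 was at 0.945 and 1.27 CPM in KO and 0.840, 0.204 and 0.174 CPM in G77S (-1.42 ± 1.19, not called). The maintenance methyltransferase Dnmt1 was at 4.55 and 6.46 CPM in KO and 3.71, 1.22 and 1.91 CPM in G77S, and its cofactor Uhrf1 at 7.62 and 9.27 and 6.09, 5.10 and 1.04 CPM (-1.27 ± 0.69 and -1.04 ± 0.73, neither called). The de novo enzymes Dnmt3a and Dnmt3b and their cofactor Dnmt3l had log2 differences of -0.09 ± 1.04, -0.14 ± 0.53 and 0.47 ± 0.42. The SEs of these 8 enzymes and cofactors, 0.41 to 1.19 on the log2 scale, are as large as many of the differences, so the depth and spread here do not show that their levels were equal. Among genes whose silencing depends on methylation, Mest was the only one called of 25 imprinted genes (4%, near the 4.19% of all genes, median 0.32). None of 19 germline genes passed (median -0.07), where the highest-expressed, Sycp3, was at 972 and 919.8 CPM in KO and 570.4, 254 and 306 CPM in G77S (adjusted p = 0.0857). The list of 2-cell stage genes had Calcoco2 and Pramel6 (223 and 198 CPM in KO, 701, 722 and 1096 CPM in G77S) called higher of 9 tested, against 1.76% of all genes. The oocyte list had Khdc3, a subcortical maternal complex gene, called higher of 15 (422 and 447 CPM in KO, 1181, 914 and 971 CPM in G77S). That is 6.67% of the list, against 4.19% of all genes. Of those 15 oocyte genes 10 had differences below 0, none of them called, and the median was -1.78. It turned to 1.16 with the stricter low-count filter, 1.28 without KO replicate 2 and 0.0054 with only the G77S and KO libraries. The 2-cell list had a median of 1.95, with 7 of 9 differences above 0. For both Pramel6 and Khdc3 the KO libraries were the lowest. The whole oocyte list summed to 509.7, 618.6 and 638.7 CPM in WT, so for Khdc3 the G77S libraries were also above every WT library. Calls were lost for Pramel6 in 5 (adjusted p up to 0.183) and Khdc3 in 2 (adjusted p up to 0.0752).

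Alcohol and retinoid dehydrogenases had 4 of 12 called lower, Adh1, Adhfe1, Adh5 and Cyp26a1, against 2.43% of all genes, with a median of -1.33. Adh5, the class III enzyme that clears formaldehyde bound to glutathione, was at 233 and 261 CPM in KO, 134, 134 and 157 CPM in WT and 94.0, 111 and 106 CPM in G77S (-1.25 ± 0.21), with KO highest and G77S lowest. Lipid carriers and fatty acid genes had 2 called higher and 3 lower of 21 (1.76% and 2.43% of all genes), with a median of 0.32. The pair of fatty acid-binding proteins went in opposite directions: Fabp3 was lower in G77S, and Fabp5 was higher, at 85.9 and 97.6 CPM in KO, 53.4, 69.9 and 68.3 CPM in WT and 717, 394 and 401 CPM in G77S (2.46 ± 0.32). Fabp5 kept its call in all alternative fits, and Adh5 lost its call in 3 (adjusted p up to 0.0804).

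Replication and cell cycle genes were higher in G77S for 5 of 28 and lower for 0, against 1.76% and 2.43% of all genes, with a median of 1.01. G77S was above KO in every library for 18 of the 28, against 24.9% of all genes. Rrm2, the radical subunit of ribonucleotide reductase with a di-iron centre, was at 380.1 and 442 CPM in KO, 603, 430.5 and 416 CPM in WT and 1179, 1228 and 898 CPM in G77S (1.423 ± 0.25). Mcm7, a subunit of the replicative helicase, was at 13.6 and 12.03 CPM in KO, 28.1, 16.4 and 18.4 CPM in WT and 75.1, 54.7 and 48.9 CPM in G77S (2.21 ± 0.39). Aurka, a mitotic kinase, was at 133 and 151 CPM in KO, 226, 451 and 309 CPM in WT and 516, 422 and 737 CPM in G77S (1.98 ± 0.34). G77S was the high group in Rrm2 and KO the low group in Aurka, while for Mcm7 G77S lay above and KO below every WT library. Plk1, another mitotic kinase, and Cdc45, a helicase cofactor, made up the rest (2.99 ± 0.54 and 1.22 ± 0.29), chosen after their values were seen. Proteasome subunits were higher in G77S for 4 of 35 and lower for 1, against the same shares of 1.76% and 2.43%, with a median of 0.47. The ATPase subunit gene Psmc1 was at 387 and 334 CPM in KO, 395, 372 and 357 CPM in WT and 791, 825 and 666 CPM in G77S (1.08 ± 0.21), Psmc5 at 0.97 ± 0.21 and the lid subunit gene Psmd7 at 1.16 ± 0.25. For these 3 G77S was above all other libraries. The medians of both lists stayed above that of all genes in all 20 alternative fits, and calls were lost for Rrm2 in 4 (adjusted p up to 0.0904), Mcm7 in 4 (adjusted p up to 0.101), Aurka in 2 (adjusted p up to 0.0878), Plk1 in 2 (adjusted p up to 0.0877), Cdc45 in 9 (adjusted p up to 0.174), Psmc1 in 4 (adjusted p up to 0.131), Psmc5 in 6 (adjusted p up to 0.181) and Psmd7 in 5 (adjusted p up to 0.146).

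**Figure D5:**
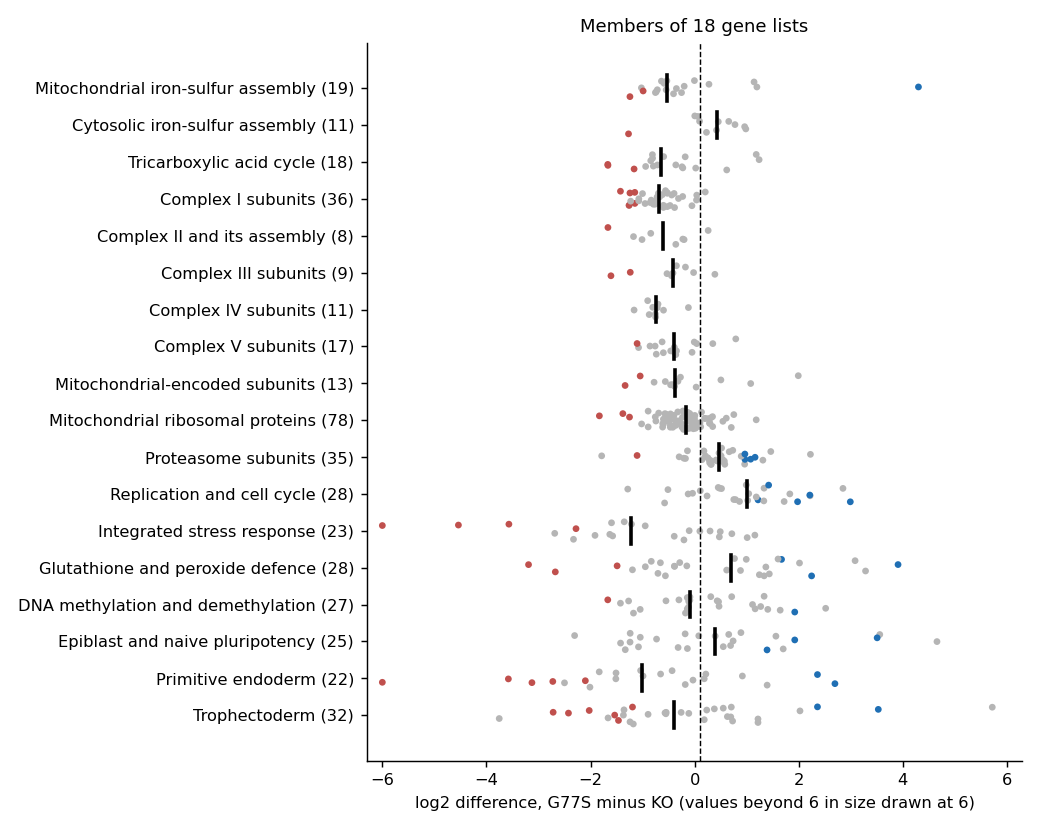
Log2 difference, G77S minus KO, for each tested member of 18 gene lists (number of members in brackets), with genes called higher in blue, called lower in red and the list median as a black bar. The dashed line is the median of all 13953 tested genes (0.10), and the bars of complexes I to V lie left of it while those of the proteasome and replication lists lie right of it.

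Other lists held few calls. Of 84 cytosolic ribosomal protein genes, Rpl37a and Rpl39l were called higher and Rpl22l1 lower (3.57%, against 4.19% of all genes). The list's median of 0.14 changed sign relative to all genes in 3 of the 20 alternative fits. Near-identical copies of ribosomal protein genes elsewhere in the genome make such counts uncertain. Among cholesterol synthesis genes only Mvd of 22 was called (3.17 ± 0.73), or 4.55%. Among interferon-induced and antigen presentation genes only H2-K1 of 16 was called (2.66 ± 0.65), or 6.25%. Over all genes the share was 4.19%. None of 13 heat shock genes and none of 19 p53 target and apoptosis genes passed, with medians of 0.58 and 0.68. The list of formative and primed epiblast genes had 0 of 4 tested genes called, and that of Y-linked genes and Xist 0 of 7. Within 2 Mb of Isca2, 4 of 50 tested genes were called: Isca2, Flvcr2 and Dpf3 higher and Ift43 lower (8%, against 4.19% of all genes). Flvcr2, a membrane transporter, was at 3.48 and 5.83 CPM in KO, 4.63, 5.16 and 6.35 CPM in WT and 30.3, 22.8 and 29.0 CPM in G77S, and Dpf3, a chromatin remodelling subunit, had no counts in KO and 4.76, 1.36 and 3.99 CPM in G77S, at least 39.5-fold higher. Calls were lost for Rpl37a in 9 (adjusted p up to 0.201), Rpl39l in 6 (adjusted p up to 0.196), Rpl22l1 in 7 (adjusted p up to 0.212), Mvd in 7 (adjusted p up to 0.156), H2-K1 in 9 (adjusted p up to 0.242), Flvcr2 in 5 (adjusted p up to 0.0938) and Dpf3 in 7 (adjusted p up to 0.141). Markers of cumulus, immune and blood cells were called for 0 of 7 tested, and the other 21 found had too few counts for a test. The summed list, most of it the epithelial gene Epcam, was at 1565 and 1862 CPM in KO and 1763, 1138 and 1433 CPM in G77S. The granulosa genes Amh, Foxl2, Fshr and Cyp19a1 had 0 counts in all 8 libraries. Inha held 1 count, in G77S replicate 2. Amhr2 and Star, also on the list, had enough counts for a test and were not called, so RNA of such cells is not shown to be absent. Several named genes share exons with a gene on the opposite strand, among them Adh1, Ddit3, Fabp3, Mb, Mcm7, Mest, Ndufb5, Pou5f1, Sycp3 and Tspan8, and the strand setting of the counting is not given in the sources used here, so such reads cannot be told apart. The partner of Pou5f1 was at 0 CPM in every library and that of Adh1 at most at 9.93 CPM. Cops6, a partner of Mcm7, was above Mcm7 in every library, at 103 and 101 CPM in KO and 172, 188 and 194 CPM in G77S. Mars, a partner of Ddit3, was at 50.4 and 29.7 CPM in KO and 68.7, 87.5 and 50.6 CPM in G77S, above Ddit3 in each G77S library. On the same strand, Dph1, Khdc3 and mt-Co3 are among those that share exons with another gene. Ddit3 shares exons there with a second entry of the same name, at 0 CPM in every library.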

How the data were processed

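The authors' deposited RSEM tables, one per library and not pooled, hold expected counts (a read mapping to more than 1 gene is shared out among them), TPM, FPKM, lengths and effective lengths, per the file headers. Listed in the submitters' processing notes are RSEM 1.3.1, STAR 2.6.1c, DESeq2 1.42.1, Trim Galore 0.4.5 and the build mm10 (GRCm38). Which annotation release was used is not given in the sources used here. Values of TPM, scaled per library and by length in the authors' deposited tables, entered alternative fits only. FPKM was not used. Length minus effective length gave the average fragment length assumed in the quantification.

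GENCODE M21 (GRCm38) gave names and 1-based coordinates for 55230 of 55471 gene identifiers (99.6%). Expected counts were rounded and tested in R 4.3.3 with edgeR 4.0.16. The steps were the low-count filter by group (13953 genes), TMM scaling, 1 fit to the 8 libraries in which the 3 genotypes share an estimate of the spread, the contrast G77S minus KO, a quasi-likelihood F test, and adjustment over all genes by Benjamini-Hochberg, with calls at an adjusted p under 0.05. Dividing a log2 difference by the root of its F statistic gave the SE. The common biological coefficient of variation was 0.65. In a library 3 counts equal 0.139 to 0.298 CPM. A fold against 0 counts is a lower bound, computed with 3 counts for the whole group. A ratio resting on 1 to 3 counts has a 95% counting interval. Without molecular identifiers both cover counting error only.

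Named genes are Isca2, Sdhb and Pou5f1, then, per direction, the 12 largest called differences among genes that average 10 CPM or more in the higher group, have separate libraries and a conventional symbol, and the 5 called genes of highest level. To these come up to 3 called members of each list by smallest p (or, with none, up to 2 of highest level as values) and a set of methylation and lineage regulators. Members and lists were chosen with earlier results of these data known. The larger lists are described by counts of called genes and medians, set against all genes (1.76% called higher, 2.43% lower, median 0.10). The steps were tested on simulated data. There were 19 alternative fits chosen at the outset (scaling, filters, libraries, a replicate block, DESeq2 1.42.0, limma 3.58.1 on log2(TPM + 1) and log2(TPM + 0.1), a length and GC trend, equal depth, protein-coding genes, each library left out), and 1 with only the 6 libraries holding Y-linked RNA, chosen after seeing the data. Promoter windows came from a RefSeq table for GRCm38.p6.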

Additional observations from a re-analysis of the deposited data

How the results depend on the processing

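The Isca2 difference kept its direction and its call in all 20 alternative fits (log2 4.12 to 4.66, adjusted p up to 0.0172). The main fit's 246 higher and 339 lower genes became 619 and 792 with no low-count filter, 391 and 455 with the stricter filter (5 CPM in 2 libraries), 489 and 520 with only the G77S and KO libraries, 852 and 847 with DESeq2, 1543 and 306 on log2(TPM + 1), 1469 and 275 on log2(TPM + 0.1), and 153 and 333 with the 6 libraries holding Y-linked RNA, a fit chosen after seeing the data. Leaving out 1 library gave 57 to 420 higher and 91 to 529 lower, and the lone KO library was then assumed to vary like the other groups. The share of higher calls was 42.1% in the main fit, 31.5% in the 6 libraries holding Y-linked RNA and 32.2% without KO replicate 2. Deviations from the group means correlated at -0.018 to 0.065 for same-numbered libraries and at -0.065 to 0.051 for others. With 2 KO libraries their deviations mirror each other, so these values cannot show whether replicate numbers pair the libraries. With the replicate block 251 genes were higher and 349 lower, and 454 of the 585 called genes (77.6%) were called again.

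No called gene named by the rule changed direction. Among all 585 called genes 5 did so in an alternative (Cycs, Gm15772, Ifrd1, Rab11a and Tpm3-rs7, named after their values were seen). Of the called genes named by the rule, 50 lost the call without KO replicate 1, 51 without KO replicate 2, 37, 49 and 37 without G77S replicates 1, 2 and 3, and 15 with the length and GC trend removed. The cause was not tested. The sign changed for 10 named genes without a call. With the length and GC trend removed Gapdh was at -0.074. With the 6 libraries Gapdh was at -0.13, Aldoa at -0.077 and Zfp42 at -0.031. With the replicate block Ccng1 was at -0.13, Dnmt3b at 0.016 and Gata6 at 0.0031. On log2(TPM + 1) and log2(TPM + 0.1), Hsp90aa1 was at 0.36 and 0.36, Dnmt3b at 0.25 and 0.30, Epcam at 0.25 and 0.25, Dnmt3a at 0.40 and 0.40, and Gata6 at 0.47 and 0.53, with Sox17 at 0.065 on the first. At equal depth Gata6 was at 0.068. With 1 library left out the ranges were -0.14 to 0.71 for Gapdh, -0.079 to 0.52 for Aldoa, -0.41 to 0.89 for Ccng1, -0.46 to 0.27 for Dnmt3b, -0.073 to 0.25 for Zfp42, -0.80 to 1.01 for Dnmt3a, -0.075 to 0.0027 for Gata6 and -7.00 to 0.41 for Sox17. Depth limits genes near the 0.139 to 0.298 CPM that 3 counts are worth, where a missing call says little.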

Other observations

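A group of called genes was at 0 counts in 1 genotype while every other library held counts. In the G77S libraries these were Fhl1, which encodes a LIM domain protein, Stap2, a signalling adaptor, BC107364 and the processed pseudogene Gm15387. Fhl1 was at 3.90 and 3.87 CPM in KO and at 6.41, 5.46 and 8.62 CPM in WT, with 66 and 73 counts in the KO libraries. Stap2 was at 5.55 and 1.06 CPM in KO and at 0.892, 2.48 and 1.20 CPM in WT. Igf1, a growth factor, and Slc6a15, an amino acid transporter, were also at 0 in G77S, but WT held at most 1 count, so only the KO libraries held more, at 16.0 and 2.54 CPM (Igf1) and 4.72 and 9.54 CPM (Slc6a15).

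In the KO libraries 15 called genes were at 0 while every other library held counts, among them Mertk, a receptor kinase for the uptake of dead cells, Dxo, a decapping exonuclease, Lpin1, a phosphatidate phosphatase, and Zdhhc7, a palmitoyl transferase. Dxo was at 8.61, 11.02 and 5.38 CPM in G77S and at 1.45, 3.28 and 4.26 CPM in WT. Mertk was at 4.27, 3.33 and 4.42 CPM in G77S and at 2.45, 3.97 and 4.82 CPM in WT. The largest number of counts in this set belonged to Gm3183, at 64.0, 31.1 and 76.5 CPM in G77S and at 12.9, 0.794 and 39.7 CPM in WT. All genes in both paragraphs were chosen after their values were seen, and these levels are given as values without a further test. With 2 KO libraries and 3 G77S libraries, 0 counts in every library of a group is not equally easy to reach in both. The share of all tested genes with such a pattern was not computed, so the numbers of genes are not compared between the groups.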
